A study of Mus musculus with 12 samples.

Results

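Transcripts of the angiopoietins and of the proteins that receive and restrain their signal were examined in mouse retina at P18. The set holds 5 of the 36131 genes in the deposited table, each found by its symbol in 1 row. Angpt1 (ENSMUSG00000022309) and Angpt2 (ENSMUSG00000031465) encode the ligands angiopoietin-1 and angiopoietin-2. Tek (ENSMUSG00000006386) encodes TIE2, the receptor that both ligands bind. Tie1 (ENSMUSG00000033191) encodes the related receptor TIE1, which pairs with TIE2 and modulates its signal. Ptprb (ENSMUSG00000020154) encodes VE-PTP, a receptor tyrosine phosphatase of endothelium that dephosphorylates TIE2.

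Angiopoietin-1, made largely by cells around vessels, activates TIE2 on endothelium and is known for vessel quiescence and barrier stability. Angiopoietin-2 is made by endothelial cells themselves, is stored in Weibel-Palade bodies, and can oppose angiopoietin-1 at TIE2 depending on context. In the retina angiopoietin-2 is known for its place in vessel sprouting and regression and in pericyte loss, and its transcript is induced in hypoxic endothelium.

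Retinas of 12 wildtype C57BL/6J mice were sequenced at P18, 1 library for each animal, in 3 groups of 4. RA-PBS mice (animals 1 to 4) stayed in room air and received placebo. O2-PBS mice (animals 5 to 8) were kept from P7 in 75% O2, which the labels end at P12, and received placebo, the schedule known as oxygen-induced retinopathy, in which vessels are first lost and then regrow abnormally in room air. O2-IC100 mice (animals 9 to 12) had the same oxygen exposure and received IC100, a humanized monoclonal antibody against the inflammasome adaptor ASC, at 10 µg/g. All injections were intraperitoneal according to the labels and fell on P12, P14 and P16. No room air group with IC100 was among the samples, so the antibody was compared only after oxygen exposure. The labels give neither the sex nor the litter of an animal.

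Estimated counts summed to between 14907143 and 24438082 per retina. Normalized CPM are these counts scaled by library size after TMM normalization, on 1 scale for all 12 retinas. The TMM factor was 0.324 in O2-IC100 animal 10 and 1.07 to 1.15 in the other retinas. A low factor raises every CPM of its library. One library stood apart. In O2-IC100 animal 10, lens genes took 57.7% of counts and rod genes 0.35%, where rod genes took 4.2 to 5.21% in the other 11 retinas. The pigment epithelium list summed to 7050 normalized CPM in animal 10, to 556 to 639 in RA-PBS, 313 to 424 in O2-PBS and 483 to 504 in the other O2-IC100 retinas, and the red blood cell list to 8240 in animal 10 against 83.6 to 259 in the others. As shares of counts the contrasts were smaller. The pigment epithelium list took 0.229% in animal 10 and 0.0354 to 0.0682% in the others, and the red blood cell list 0.267% and 0.0093 to 0.0276%. The endothelial list, by contrast, summed to 77.5 CPM in animal 10 and to 262 to 614 in the others. Lens genes also took 1.23 to 4.4% of counts in RA-PBS animals 2 to 4, against 0.000972% in RA-PBS animal 1 and at most 0.0124% in O2-PBS. The members' tests and the counts of genes called are therefore given for all 12 animals and for the 11 without animal 10, and other values state where animal 10 was left out. A set of 4 Y-linked genes summed to 223 to 324 CPM in animals 1 to 3, 8, 9, 11 and 12 and to 4.04 to 9.85 CPM in animals 4 to 7 and 10. Of the O2-PBS retinas only animal 8 was thus at the higher Y-linked level, whereas all O2-IC100 retinas other than animal 10 were.

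A gene is called higher or lower here when it passed the study's 3 thresholds in edgeR's two-sided quasi-likelihood test. These are a 1.5-fold difference, p below 0.05 and an adjusted p below 0.1, the last after Benjamini-Hochberg adjustment over the 16489 genes tested with 12 animals or the 16688 tested with 11. Fold changes are log2 values with their standard error (SE). These p-values measure the spread between the animals sequenced. In whole retina, fewer cells of a type and less RNA per cell cannot be told apart.

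To set the 5 genes against each other, CPM were divided by the length in kilobases of the longest coding transcript. In RA-PBS retinas Ptprb was the most abundant per length, at a mean of 3.72 CPM per kb, and Angpt1 the least, at 0.569. Tie1 (2.56), Tek (2.18) and Angpt2 (1.64) lay between them. On this scale the ranges of Ptprb and Tie1 overlapped, as did those of Tie1 and Tek, so these neighbours in the order were not separated beyond their spread. In O2-PBS retinas the order was different, with Angpt2 first at 7.34 CPM per kb and Tie1 next at 6.8, then Ptprb at 4.2, Tek at 2.49 and Angpt1 last at 0.395. Angpt2 and Tie1 overlapped there, and only in animal 5 was Angpt2 above Tie1. In the 3 O2-IC100 retinas without animal 10, Tie1 stood at 4.13, Angpt2 at 3.0, Tek at 2.91, Ptprb at 2.39 and Angpt1 at 0.385 CPM per kb, with Angpt2 overlapping Tek and Tek overlapping Ptprb. With animal 10 the means of these genes were 3.26, 2.55, 2.37, 1.87 and 1.02 CPM per kb. Angpt1 was thus the lowest of the 5 in each group outside animal 10, and Ptprb had the highest mean in room air but not in the oxygen groups.

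Angpt2, the context-dependent ligand, was the member that differed most between room air and oxygen. Its normalized CPM were 6.06, 3.91, 6.27 and 7.16 in RA-PBS animals 1 to 4. They were 39.1, 17.9, 20.5 and 26.9 in O2-PBS animals 5 to 8. The lowest O2-PBS retina lay well above the highest RA-PBS retina. In the O2-IC100 group Angpt2 stood at 8.78, 11.6 and 11.7 CPM in animals 9, 11 and 12 and at 4.29 in animal 10. All 4 O2-IC100 retinas were below every O2-PBS retina, and animals 9, 11 and 12 were above every RA-PBS retina. Group means were 5.85 ± 1.38 CPM (SD, n = 4) in RA-PBS, 26.1 ± 9.46 (SD, n = 4) in O2-PBS and 10.7 ± 1.65 (SD, n = 3, without animal 10) in O2-IC100.

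Angpt1, the TIE2 agonist, was scarce in every group, with 25.7 to 60.1 estimated counts per retina outside animal 10. It read 2.36, 2.08, 2.11 and 3.16 CPM in RA-PBS and 1.99, 1.62, 1.47 and 1.66 CPM in O2-PBS. The O2-PBS retinas thus all lay below the RA-PBS retinas, though the gap between the nearest animals, 1.99 and 2.08, was narrow. In O2-IC100 animals 9, 11 and 12 it read 1.86, 1.39 and 1.67 CPM, within or close to the O2-PBS range. Animal 10 read 12.5 CPM, several times any other retina, in the library with the lens, pigment epithelium and red blood cell levels given above. Its estimated count was 99.1 in the largest library, against at most 60.1 in the others. The CPM also carry the low TMM factor of that library (0.324), in which lens genes took 57.7% of counts. The part of this scaling in the CPM contrast was not tested. The part of lens, pigment epithelium and blood in the 12.5 CPM was not tested. An exon of Angpt1 overlaps one of the antisense gene Gm17473 in the reference annotation, and the sources used here do not state whether counting used strand, so reads of the pair may not be separable.

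Tek, the receptor for both ligands, varied little between groups. Its CPM were 10.7, 9.95, 10.2 and 9.64 in RA-PBS and 8.74, 12.5, 11.5 and 13.6 in O2-PBS. One O2-PBS retina lay below all RA-PBS retinas and 3 lay above them. Animals 9, 11 and 12 of O2-IC100 read 12.2, 13.4 and 15 CPM, above every RA-PBS retina but overlapping O2-PBS, and animal 10 read 3.53.

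Tie1, the other receptor of the family, followed Angpt2 in direction. It stood at 9.65, 9.66, 14.8 and 9.27 CPM in RA-PBS and at 28.9, 24.9, 28.0 and 33.3 CPM in O2-PBS. The groups did not overlap, and RA-PBS animal 3, in which lens genes took 4.4% of counts, stood above the other RA-PBS animals. Animals 9, 11 and 12 of O2-IC100 read 16.4, 16.9 and 19.2 CPM, between the RA-PBS and the O2-PBS ranges, and animal 10 read 2.78.

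Ptprb, the phosphatase, showed a different pattern from Tie1. It read 48.5, 52.3, 42.5 and 34.2 CPM in RA-PBS and 61.0, 48.7, 39.6 and 50.6 CPM in O2-PBS, so these groups overlapped. All O2-IC100 retinas lay below both, at 24.8, 32.7 and 28.0 CPM in animals 9, 11 and 12 and at 3.41 in animal 10. The mean of the O2-IC100 retinas without animal 10, 28.5 ± 4.02 CPM (SD, n = 3), was under the RA-PBS mean of 44.4 ± 7.86 (SD, n = 4), and its lowest O2-PBS retina stood at 39.6.

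**Figure D1:**
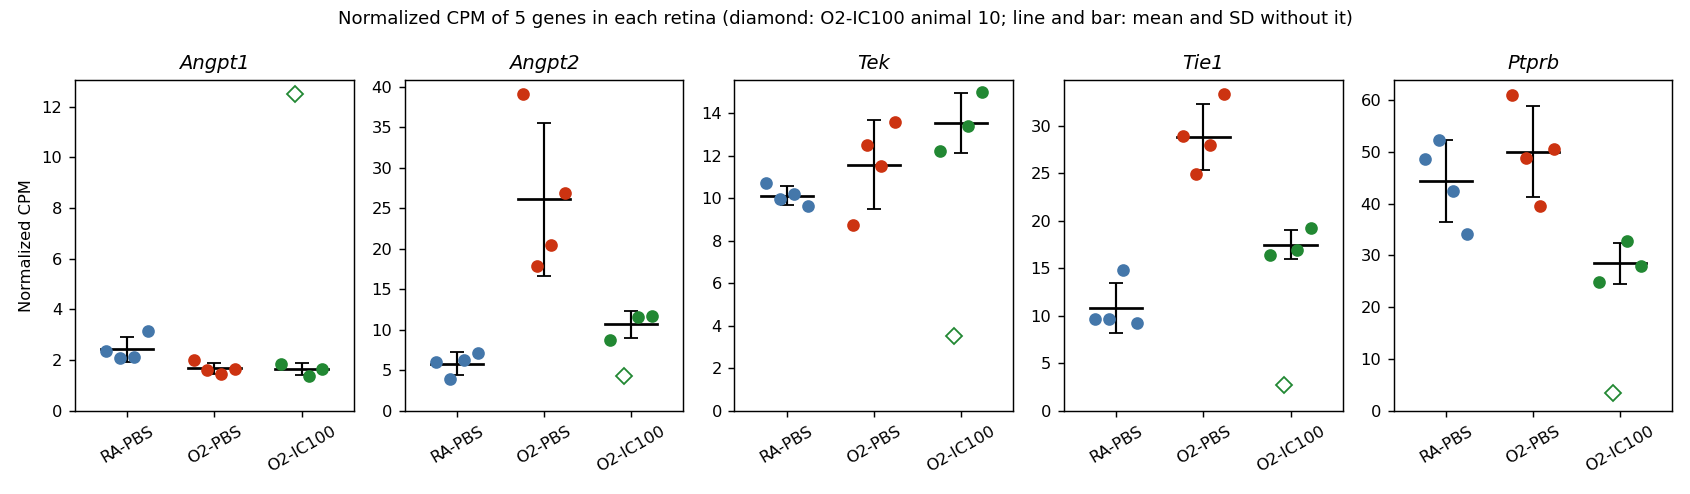
Normalized CPM (vertical axes, linear from 0) of the 5 genes in each of the 12 retinas, by group. Filled circles are single retinas, the open diamond is O2-IC100 animal 10, and lines with bars are the mean and SD without that animal. Angpt2 and Tie1 are highest in the 4 O2-PBS retinas, Ptprb is lowest in O2-IC100, and animal 10 is high for Angpt1 (12.5 CPM) and low for Tek, Tie1 and Ptprb.

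The comparison of O2-PBS with RA-PBS asks what the oxygen schedule left in the P18 retina. With all 12 animals, 1 of the 5 genes was called, against 0.807% of all genes tested. Angpt2 rose 4.47-fold (log2 2.16, SE 0.35, adjusted p = 0.0274). Without animal 10, which belongs to neither group but enters the shared estimate of spread, 2 of the 5 were called, against 6.27% of genes tested. Angpt2 rose by the same log2 2.16 (SE 0.24, adjusted p = 0.000198), and Tie1 rose 2.66-fold (log2 1.41, SE 0.15, adjusted p = 0.000129). The Tie1 difference had the same size with 12 animals (log2 1.41, SE 0.43), where it missed the threshold at adjusted p = 0.3, while DESeq2 called it in the same 12 animals (log2 1.4, adjusted p = 0.0405). Leaving out RA-PBS animal 2 from the 12 also ended the Angpt2 call (log2 2.0, adjusted p = 0.125), while Angpt2 was called in all 17 settings without animal 10.

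The remaining members did not pass in either fit. Angpt1 gave a log2 difference of -0.53 (SE 0.23, 95% interval -1.03 to -0.02, adjusted p = 0.207) without animal 10, and -0.52 (SE 0.63, adjusted p = 1) with it. Tek differed by 0.2 (SE 0.14, 95% interval -0.1 to 0.49) and Ptprb by 0.17 (SE 0.15, 95% interval -0.14 to 0.49) on the log2 scale in the fit without animal 10. Both intervals end short of a 1.5-fold difference, while the misses do not show that the groups were alike. In normalized CPM, 3 of the 5 genes had groups that did not overlap (Angpt2 and Tie1 higher, Angpt1 lower), where 14.4% of all genes did. Both Y-linked levels were present in both groups, and their part in the differences was not tested. Among animals at the higher level, Angpt2 was 26.9 CPM in O2-PBS animal 8 and 3.91 to 6.27 in RA-PBS animals 1 to 3. Among those at the lower level it was 17.9 to 39.1 CPM in O2-PBS animals 5 to 7 and 7.16 in RA-PBS animal 4. Each of these sets has 1 animal on one side. Tie1 likewise read 33.3 CPM against 9.65 to 14.8 at the higher level and 24.9 to 28.9 CPM against 9.27 at the lower. In RA-PBS animal 1, whose library held next to no lens counts, Angpt2 (6.06 CPM) and Tie1 (9.65) fell inside the range of the other 3 RA-PBS retinas. That is 1 retina, and the part of lens content in the differences was not tested.

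The comparison of O2-IC100 with O2-PBS asks what the antibody changed after the same oxygen exposure. With 12 animals edgeR called none of the 5 genes, and it called 0.0% of all genes tested, although 2784 of them had an unadjusted p under 0.05. DESeq2 called 125 genes and limma voom 2 in the same 12 animals. Among the members, DESeq2 called Angpt2 alone (log2 -1.5, adjusted p = 0.00543). Without animal 10, edgeR called 3 of the 5, all lower in O2-IC100, against 0.947% of genes tested. Angpt2 fell to 0.415 of its O2-PBS level (log2 -1.27, SE 0.26, adjusted p = 0.0542). Ptprb fell to 0.578 (log2 -0.79, SE 0.16, adjusted p = 0.0586), and Tie1 fell to 0.616 (log2 -0.7, SE 0.16, adjusted p = 0.0806). The 12-animal estimates had the same direction and larger standard errors, at log2 -1.51 (SE 0.34) for Angpt2, -1.16 (SE 0.47) for Ptprb and -1.05 (SE 0.42) for Tie1, each with adjusted p = 0.287.

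Angpt1 and Tek were not called. Without animal 10, the Angpt1 difference was -0.02 (SE 0.26, 95% interval -0.58 to 0.53) and the Tek difference 0.24 (SE 0.15, 95% interval -0.08 to 0.55) on the log2 scale. With animal 10 the Angpt1 difference turned to 1.31 (SE 0.64, adjusted p = 0.312) and the Tek difference to -0.06 (SE 0.34, adjusted p = 0.933), so for Angpt1 the value rests on that library. In normalized CPM the O2-IC100 and O2-PBS groups did not overlap for Angpt2, Tie1 and Ptprb, with or without animal 10. This was true of 20.8% of all genes with animal 10 and of 35.6% without it, so 3 of 5 stands less far from the background by this count than by the test.

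The calls against O2-PBS depended on the animals kept. When a further animal was left out beside animal 10, Angpt2 was still called in 6 of 11 fits, and Tie1 and Ptprb each in 5 of 11. The 11 include fits without an RA-PBS animal, which is in neither group compared, and each of those kept all 3 calls. Among fits without a further O2-PBS or O2-IC100 animal, Angpt2 was called only without animal 6 or 7. Tie1 was called there only without animal 6, and Ptprb only without animal 7. Leaving out O2-PBS animal 5 gave Angpt2 a log2 difference of -1.02 (adjusted p = 0.135), and leaving out O2-PBS animal 8 gave -1.25 (adjusted p = 0.124). Without a further O2-IC100 animal, which leaves 2 in that group, the Angpt2 value ran from -1.34 to -1.15 (animals 12 and 9) with adjusted p-values of 0.214 to 0.261. Tie1 lost its call without animals 5, 7, 8, 9, 11 or 12 (log2 -0.77 to -0.62), and Ptprb without animals 5, 6, 8, 9, 11 or 12 (log2 -0.91 to -0.7), while the direction was kept in each of these fits. The Y-linked level also moved with this comparison. With the summed Y-linked level as a covariate and animal 10 left out, Ptprb was called (log2 -1.0, adjusted p = 0.0961), whereas Tie1 (log2 -0.91, adjusted p = 0.104) and Angpt2 (log2 -1.12, adjusted p = 0.125) missed the threshold. O2-PBS animal 8, at the same Y-linked level as animals 9, 11 and 12, read 26.9 CPM for Angpt2 against 8.78 to 11.7, 33.3 CPM for Tie1 against 16.4 to 19.2, and 50.6 CPM for Ptprb against 24.8 to 32.7. Animal 8 alone stands for O2-PBS at that level. Y-linked level and treatment largely moved together, and their parts in these differences cannot be told apart here.

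The third comparison, of O2-IC100 with RA-PBS, asks how far treated retinas stood from room air. The 3 comparisons share groups, so their values are set side by side and not taken as separate evidence. With 12 animals none of the 5 genes was called, and edgeR called 0.0% of genes tested, with 2183 at an unadjusted p under 0.05. DESeq2 called 299 genes and limma voom 2, none of them a member. Without animal 10, 2 of the 5 were called, against 1.56% of genes tested. Tie1 was higher than in room air (log2 0.71, SE 0.16, adjusted p = 0.0603), and Ptprb was lower (log2 -0.62, SE 0.16, adjusted p = 0.0857). Angpt2 missed the threshold, at log2 0.89 (SE 0.26, 95% interval 0.33 to 1.44, adjusted p = 0.124), as did Tek at 0.43 (SE 0.15, adjusted p = 0.172) and Angpt1 at -0.55 (SE 0.25, adjusted p = 0.319).

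Side by side, and without animal 10, Angpt2 thus stood at log2 2.16 above room air in O2-PBS and at 0.89 above it in O2-IC100. Tie1 stood at 1.41 and 0.71. Ptprb stood at 0.17 in O2-PBS and at -0.62 in O2-IC100, on the other side of room air. Ptprb was the only one of the 5 whose O2-IC100 and RA-PBS groups did not overlap with all animals kept, where 5.84% of all genes did not. Without animal 10 none of the 5 overlapped (Angpt2, Tek and Tie1 higher, Angpt1 and Ptprb lower), where 10.7% of all genes did not. With animal 10 left out and a second animal with it, Tie1 was called in 7 of 11 fits and Ptprb in 3 of 11. Tie1 lost its call without animals 2, 9, 11 or 12 (log2 0.64 to 0.75), and Ptprb kept its call only without animal 4 (log2 -0.73), 5 (-0.64) or 7 (-0.62). The 11 include fits without an O2-PBS animal, which is in neither group compared. Among fits without a further RA-PBS or O2-IC100 animal, Tie1 was called only without animal 1, 3 or 4, and Ptprb only without animal 4. With 12 animals the log2 differences were 0.36 (SE 0.42, adjusted p = 0.674) for Tie1 and -0.99 (adjusted p = 0.375) for Ptprb.

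**Figure D2:**
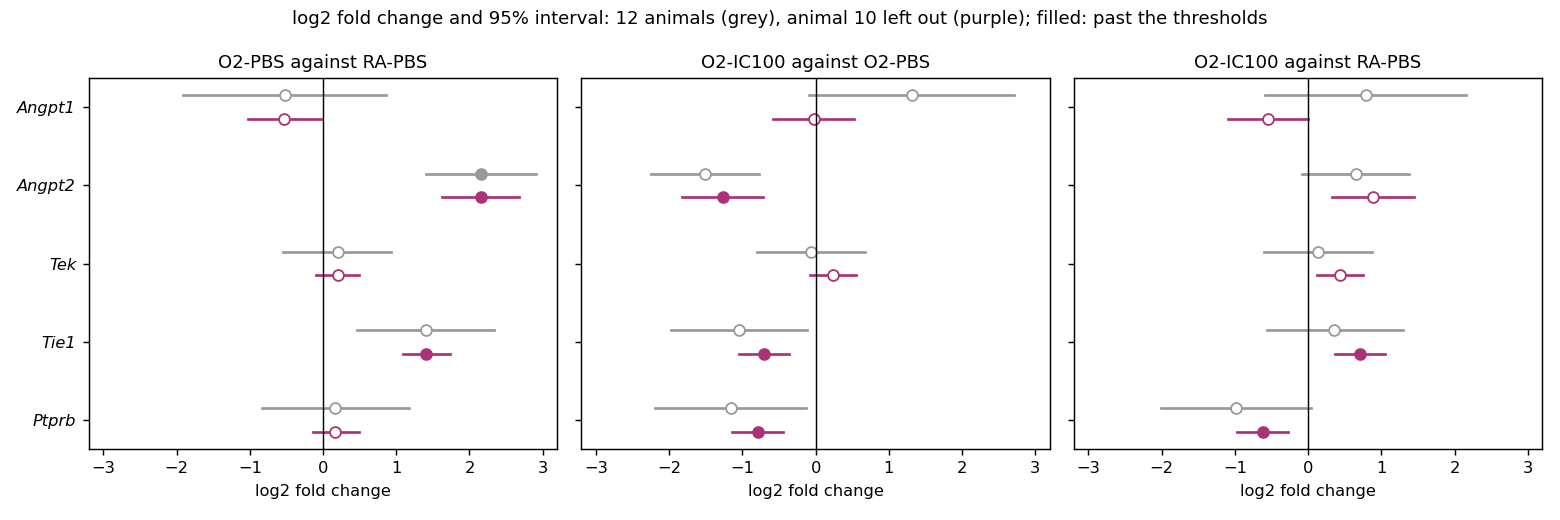
Log2 fold changes (horizontal axes) of the 5 genes in the 3 comparisons, with 95% intervals as lines. Grey is the fit of 12 animals and purple the fit without O2-IC100 animal 10, and filled circles passed the thresholds. Only Angpt2 in O2-PBS against RA-PBS is filled in grey, and the intervals are narrower in purple for every gene.

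Ratios of pairs of these genes within a retina do not depend on how libraries were scaled, and they are given as descriptions with no test. The ratio of Angpt2 to Angpt1, the ligand that can oppose TIE2 over the ligand that activates it, was 2.57, 1.88, 2.97 and 2.27 in RA-PBS. It was 19.7, 11.1, 14 and 16.2 in O2-PBS. In O2-IC100 it was 4.71, 8.31 and 7.03 in animals 9, 11 and 12 and 0.343 in animal 10. Outside animal 10 the groups formed 3 ranges that did not overlap, with O2-IC100 between the others. Animal 10 was the only retina in which Angpt1 exceeded Angpt2.

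The ratio of Tie1 to Tek compares both receptors. It was 0.901, 0.971, 1.45 and 0.962 in RA-PBS animals 1 to 4, and it ran from 1.99 to 3.31 in O2-PBS. In O2-IC100 animals 9, 11 and 12 it ran from 1.26 to 1.35, and in animal 10 it was 0.786. Animals 9, 11 and 12 lay above RA-PBS animals 1, 2 and 4 and below RA-PBS animal 3, so their overlap with RA-PBS rests on that 1 retina. Means on the log2 scale were 0.07 ± 0.31 (SD, n = 4) in RA-PBS, 1.32 ± 0.3 (SD, n = 4) in O2-PBS and 0.37 ± 0.05 (SD, n = 3) in O2-IC100 without animal 10.

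The ratio of Ptprb to Tek, the phosphatase over its substrate receptor, separated the groups differently. It was 3.55 to 5.25 in RA-PBS and 3.43 to 6.97 in O2-PBS, with log2 means of 2.11 ± 0.24 and 2.11 ± 0.47 (SD, n = 4 each). In O2-IC100 animals 9, 11 and 12 it was 2.03, 2.44 and 1.87, below every other retina but animal 10, which was at 0.964. The ratio of these transcripts was thus alike in mean in both placebo groups and lower in each O2-IC100 retina.

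**Figure D3:**
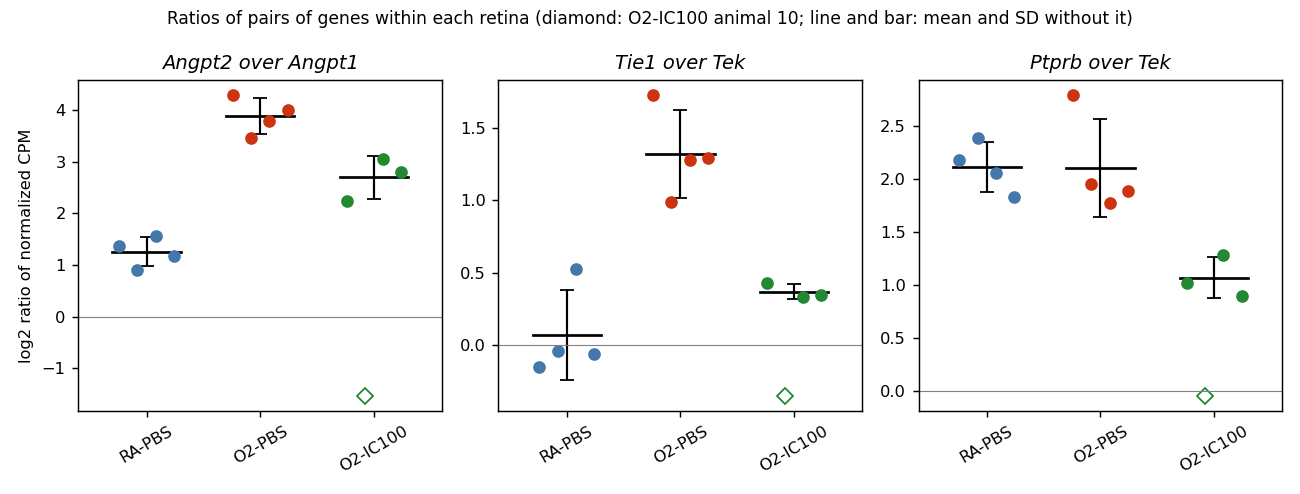
Log2 ratios (vertical axes) of the normalized CPM of Angpt2 over Angpt1, Tie1 over Tek and Ptprb over Tek in each retina, by group. Circles are single retinas, the open diamond is O2-IC100 animal 10, and lines with bars are the mean and SD without it. Angpt2 over Angpt1 and Tie1 over Tek peak in O2-PBS, and Ptprb over Tek is lowest in O2-IC100.

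Since Angpt2, Tek, Tie1 and Ptprb are known from endothelium, the level of other endothelial genes was measured in the same retinas. Whole retina does not show which cells held the members' transcripts, and other retinal cells may hold a part of them. Outside animal 10, no marker of the endothelial list was at 0 in any retina. The 15 markers summed to 262 to 366 CPM in RA-PBS, 518 to 614 in O2-PBS and 372 to 412 in O2-IC100 without animal 10. In O2-PBS against RA-PBS, 12 of the 15 were called higher without animal 10 (median log2 1.17), where 6.27% of all genes tested were called. With 12 animals 4 of the 15 were called higher (Egfl7, Sox18, Cdh5 and Eng), where 0.807% of all genes were. In O2-IC100 against O2-PBS, Robo4, Cdh5 and Eng were called lower without animal 10 (median -0.43), where 0.947% of all genes were called, and none was called with 12 animals. The medians over all genes tested were -0.007 and 0.004. Tip cell and tuft genes summed to 42.6 to 69.3, 190 to 317 and 97.1 to 115 CPM in RA-PBS, O2-PBS and O2-IC100 without animal 10. All 10 were called higher in O2-PBS than in RA-PBS without animal 10, and 6 of 10 with it, Dll4, Plaur, Mcam and Pgf being the exceptions. Esm1, Lama4, Mcam and Unc5b were called lower in O2-IC100 than in O2-PBS without animal 10, and none of the 10 with it. Pericyte and mural genes, from the cells in which Angpt1 is best known, summed to 615 to 765, 887 to 1080 and 791 to 857 CPM in the same order. Of the 13, 9 were called higher in O2-PBS than in RA-PBS without animal 10, and 1 (Des) with it. Microglia and macrophage genes summed to 48.8 to 92.0 CPM in RA-PBS, 91.7 to 116 in O2-PBS and 107 to 131 in O2-IC100 without animal 10. Of these 11, 5 were called higher in O2-PBS than in RA-PBS without animal 10 and none with it. Horizontal cell genes summed to 374 to 528 CPM in RA-PBS, 316 to 345 in O2-PBS and 375 to 403 in O2-IC100 without animal 10. Of these 6, Calb1 was called lower in O2-PBS than in RA-PBS without animal 10 and none with it. Of 8 pigment epithelium genes, 5 were called lower in O2-PBS than in RA-PBS without animal 10, and none of the 7 tested with it. The part of these cell types in the members' differences was not tested.

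Each member was then divided by the summed endothelial level of its own retina and compared with an exact two-sided permutation test on the log2 scale, with adjustment over the 15 tests made (5 genes, 3 comparisons). Between O2-PBS and RA-PBS all 5 ratios differed without overlap (exact p = 0.0286 each, the smallest that 4 against 4 allows, adjusted p = 0.0477). Relative to the endothelial sum, Angpt2 was higher in O2-PBS by log2 1.34 and Tie1 by 0.65. Angpt1 was lower by log2 -1.3, and Tek and Ptprb each by -0.61. In the family of tests without animal 10 the same p-values adjusted to 0.0714. Angpt2 thus differed by more than the summed endothelial level, and Tek and Ptprb, whose CPM overlapped between the groups, were lower once divided by it. The sum itself did not overlap between these groups (262 to 366 CPM in RA-PBS, 518 to 614 in O2-PBS). A gene of unchanged CPM therefore tends to come out lower, and the lower quotients of Tek and Ptprb show no fall of their own. The share of all genes that separate over this sum was not computed. The sum leaned on 2 receptor genes, Kdr with 28.2 to 44.0% and Flt1 with 12.3 to 25.2% of it outside animal 10. With the median of the 15 genes in place of their sum, Angpt2 was higher by log2 0.77 and Tie1 by 0.08, and Tek was lower by -1.17 and Ptprb by -1.18. The Tie1 difference thus rested on how the list was summarised.

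Between O2-IC100 and O2-PBS without animal 10, no test could pass 0.05, since the smallest p that 3 against 4 allows is 0.0571. The sum was itself lower in these O2-IC100 retinas (372 to 412 CPM, against 518 to 614 in O2-PBS). A gene of unchanged CPM therefore tends to come out higher here. Tek over the endothelial sum was higher by log2 0.74 and Angpt1 by 0.47, Angpt2 was lower by -0.73 and Tie1 by -0.21, all without overlap (exact p = 0.0571, adjusted p = 0.0714). Ptprb over the sum was lower by log2 -0.3 and overlapped between the groups (exact p = 0.114, adjusted p = 0.122). With animal 10, Tek was higher by log2 0.85 and Tie1 lower by -0.28 (exact p = 0.0286, adjusted p = 0.0477), Angpt1 was higher by 1.79 (exact p = 0.0286), and Angpt2 (-0.47, exact p = 0.229) and Ptprb (-0.47, exact p = 0.0571) overlapped.

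Between O2-IC100 and RA-PBS, Ptprb over the endothelial sum was lower by log2 -0.91 without animal 10 (exact p = 0.0571, no overlap) and by -1.08 with it (exact p = 0.0286, adjusted p = 0.0477). Per retina, the quotient was 0.118 to 0.156 in RA-PBS, 0.0748 to 0.101 in O2-PBS and 0.0665 to 0.0795 in O2-IC100 without animal 10. By this quotient Ptprb was highest in room air, with both oxygen groups below it. The sum itself was lowest in room air (262 to 366 CPM, against 518 to 614 in O2-PBS and 372 to 412 in O2-IC100 without animal 10). A gene of unchanged CPM therefore tends to come out highest in room air. Ptprb CPM overlapped between RA-PBS and O2-PBS and were lower in O2-IC100, so the O2-PBS quotient shows no fall of its own. Tek over the sum was 0.0284 to 0.0368 in RA-PBS, 0.0144 to 0.0242 in O2-PBS and 0.0326 to 0.0364 in O2-IC100 without animal 10, so that by this quotient O2-PBS lay below the other groups. With the list's median in place of its sum, and all animals, the O2-IC100 against RA-PBS difference turned from log2 0.24 to -0.4 for Tek, from 0.37 to -0.27 for Tie1 and from 0.49 to -0.15 for Angpt1.

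**Figure D4:**
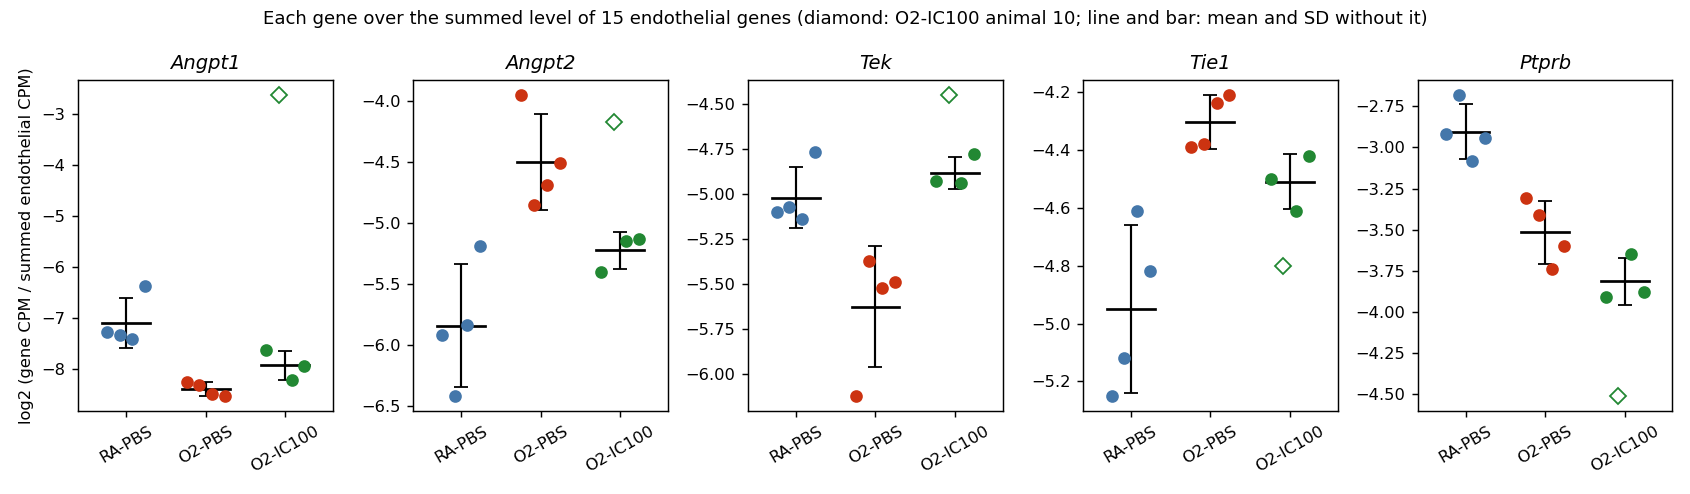
Log2 of each gene's CPM over the summed CPM of 15 endothelial genes in the same retina (vertical axes, a different range in each panel), by group. Circles are single retinas, the open diamond is O2-IC100 animal 10, and lines with bars are the mean and SD without it. In O2-PBS, Angpt2 and Tie1 lie above and Angpt1, Tek and Ptprb below their RA-PBS values.

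The other genes of the pathway were followed through a list of 35. It holds further ligands and ligand partners, integrins that bind angiopoietin-2, adaptors and kinases downstream of TIE2, transcription factors of the pathway, and the VE-PTP partner VE-cadherin with receptor sheddases. Without animal 10, 8 of 35 were called higher in O2-PBS than in RA-PBS and 0 lower, with a median log2 difference of 0.14 over the list and -0.007 over all genes tested, of which 6.27% were called. With 12 animals, 3 of the 34 tested were called higher (Itga5, Ets1 and Cdh5). Against O2-PBS, 4 of 35 were called lower in O2-IC100 without animal 10 (Itga5, Itgb3, Ets1 and Cdh5; median -0.17) and 0 of 34 with it, where 0.947% and 0.0% of all genes were called. Leaving out a further animal brought the 4 to 0 (animal 5, 9, 11 or 12) or to 1 (animal 7 or 8). Against RA-PBS, 3 were called higher in O2-IC100 without animal 10 (Ets1, Cdh5 and Mmp14; median 0.06) and 0 with it, where 1.56% and 0.0% of all genes were called. Leaving out a further animal brought the 3 to 0 (animal 12), 1 (animal 2 or 11), 2 (animal 9) or 5 (animal 4).

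Of the 4 integrin genes, 3 rose after oxygen in the fit without animal 10. Itgb3, the beta-3 chain of the vitronectin receptor, stood at 0.785 to 1.39 CPM in RA-PBS, 3.6 to 5.67 in O2-PBS and 0.852 to 1.78 in O2-IC100 without animal 10. It rose by log2 2.08 (SE 0.28, adjusted p = 0.000651) and was lower in O2-IC100 than in O2-PBS by -1.64 (SE 0.3, adjusted p = 0.0381). With 12 animals these values were 2.08 (SE 0.68, adjusted p = 0.368) and -0.29 (SE 0.65, adjusted p = 0.824). Itga5, the alpha chain of the fibronectin receptor, stood at 3.14 to 5.88, 10.2 to 18.6 and 6.28 to 7.6 CPM in the same order. Itgb1, the beta-1 chain that pairs with it, rose from 60.5 to 94.9 CPM in RA-PBS to 106.0 to 139.0 in O2-PBS (log2 0.69, adjusted p = 0.00442, and 0.706 with 12 animals) and stood at 107.0 to 114.0 CPM in O2-IC100. Itgav, the alpha-v chain, was not called in any comparison. The integrin O2-IC100 values thus lay near room air for Itgb3 and within the O2-PBS range for Itgb1.

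Among the adaptors and kinases below TIE2, 1 of 15 was called after oxygen without animal 10, where 6.27% of all genes tested were called. This count was thus near the share over all genes. Tnip2, which encodes the ABIN-2 protein that binds TIE2, stood at 16.4 to 23.9 CPM in RA-PBS, 30.9 to 43.0 in O2-PBS and 22.7 to 25.8 in O2-IC100 without animal 10 (log2 0.85 for O2-PBS against RA-PBS, SE 0.13, adjusted p = 0.00159, and 0.28 with 12 animals). The other 14, the AKT and PI3-kinase genes among them, passed in no comparison, and the median of the 15 was 0.01. Transcripts say nothing of the phosphorylation through which these proteins act.

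Of 9 transcription factor genes, Ets1 was called in both fits and Foxc2 without animal 10. Ets1, an endothelial ETS factor, stood at 9.51 to 14.6 CPM in RA-PBS, 26.4 to 39.0 in O2-PBS and 17.9 to 20.8 in O2-IC100 without animal 10. It rose by log2 1.49 after oxygen (SE 0.15, adjusted p = 0.00011) and without animal 10 was the one factor called in all 3 comparisons, at -0.75 (adjusted p = 0.0746) against O2-PBS and 0.74 (adjusted p = 0.059) against RA-PBS. Foxc2, a forkhead factor of vascular development, was called in O2-PBS against RA-PBS (adjusted p = 0.0232) at levels under 1 CPM, 0.0527 to 0.167 against 0.333 to 0.678, and was not tested with 12 animals. Foxo1, the factor that TIE2 signalling restrains and that drives Angpt2, was not called in any comparison (log2 0.2, SE 0.11, after oxygen).

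Cdh5, which encodes VE-cadherin, the junction protein that VE-PTP binds, stood at 7.69 to 14.1 CPM in RA-PBS, 32.5 to 42.3 in O2-PBS and 17.8 to 22.2 in O2-IC100 without animal 10. Without animal 10 it rose by log2 1.67 (SE 0.16, adjusted p = 7.6e-05), where Ptprb in the same fit gave 0.17 (SE 0.15), and their 95% intervals, 1.33 to 2.02 and -0.14 to 0.49, did not meet. Cdh5 is also 1 of the 15 endothelial markers, of which 12 were called higher in that fit (median log2 1.17). The contrast with Ptprb is thus not particular to the VE-PTP partner. Mmp14, a membrane metalloproteinase that can shed TIE2, rose from 13.7 to 17.9 CPM to 24.8 to 27.3 CPM (log2 0.78, SE 0.1, adjusted p = 0.000402, and 0.106 with 12 animals) and was not called between O2-IC100 and O2-PBS.

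**Figure D5:**
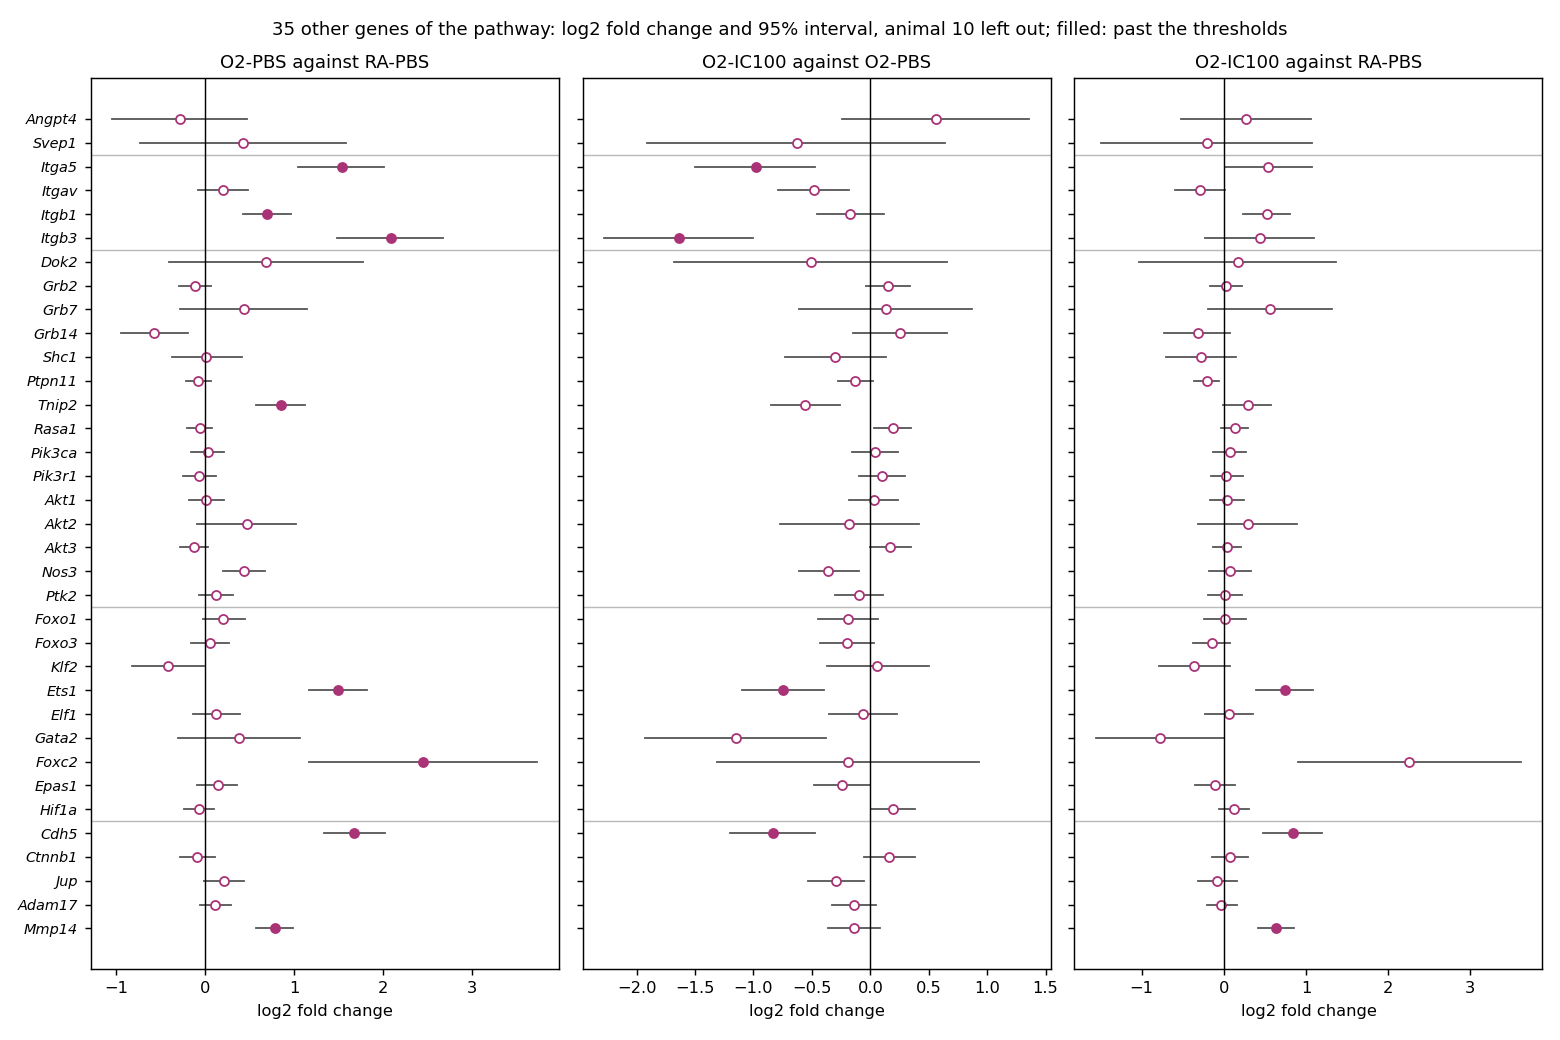
Log2 fold changes (horizontal axes, a different range in each panel) of the 35 other pathway genes without animal 10, with 95% intervals as lines, and grey lines between the 5 groups of genes. Filled circles passed the thresholds. There are 8 filled circles in O2-PBS against RA-PBS, 4 in O2-IC100 against O2-PBS and 3 in O2-IC100 against RA-PBS.

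Genes whose log2 CPM was most like each member's over the 11 retinas without animal 10 were ranked by Pearson's r among 15149 genes, as a description across retinas that differ in group, lens content and Y-linked level. Closest to Angpt2 were Mcam (r = 0.99), which encodes an adhesion molecule of endothelium and pericytes, Wwtr1 (0.985), which encodes the coactivator TAZ, and Adgrl4 (0.982), an adhesion receptor gene of endothelium. Closest to Tie1 were the endothelial genes Mmrn2 (0.986) and Cd93 (0.985) and the integrin gene Itga1 (0.985). Closest to Ptprb were Usp35 (0.948), Flt1 (0.94), which encodes a VEGF receptor, and Kank4 (0.938). Closest to Tek were Cfap57 (0.918), Ppm1g (0.917) and Mrpl16 (0.884), and closest to Angpt1, a gene of low counts, were Ubl7 (0.923), Elovl7 (0.907) and Sox10 (0.897). These are the highest of 15149 values over 11 retinas. The r that unrelated genes would reach in such a ranking was not computed, so the names do not show shared regulation. The likeness was thus higher for Angpt2 and Tie1, the members with the widest range between groups, than for Tek and Angpt1.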

How the data were processed

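The data were RNA-seq of 12 retinas at P18, grouped from their labels. The authors pseudoaligned 150 bp paired-end reads to the GRCm39 release 104 mouse transcriptome with Kallisto and summarised the result by gene with tximport. The deposited values are therefore expected counts with no normalization. They were rounded to whole numbers here. Symbols were paired for 35374 of 36131 identifiers. Coordinates are not given, as the reference at hand is of another build, and transcript lengths are from GENCODE M21.

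In R 4.3.3, edgeR 4.0.16 was used with TMM, filterByExpr and a robust quasi-likelihood fit of the 3 groups without covariates, for 12 animals and without O2-IC100 animal 10. Thresholds were the study's. DESeq2 1.42.0, the authors' tool, limma voom (limma 3.58.1), other normalizations and filters, covariates for lens and Y-linked levels, and leaving out animals were alternatives. The procedure was checked on simulated data. Total counts per retina ran from 14907143 to 24438082.

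The members, gene lists and tests were chosen with earlier results of these data known. Genes named are the 5 members, pathway genes past the thresholds in any comparison, the 3 genes most correlated with each member over 11 libraries (among genes averaging 1 CPM or more), and genes of a marker list where it is described. Itgav, Foxo1, Kdr and Flt1 were named after their values were seen.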

Additional observations from a re-analysis of the deposited data

Results flagged for a closer look

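For the 5 genes and their ratios, each group of 4 retinas was checked for 1 retina far from the other 3 (Dixon's test at the 95% level). Of 39 groups checked 7 had such a retina, where chance gives about 1 in 20 for a single group, and 4 of the 7 were in O2-IC100 animal 10. The ratios reuse the 5 genes and 1 shared sum, so the 39 are not independent. Whether 7 is an excess cannot be read from this count. In that animal Angpt1 stood at 12.5 CPM, Tie1 at 2.78 CPM, the log2 ratio of Tie1 to Tek at -0.35 and the log2 ratio of Angpt1 to the endothelial sum at -2.63. In RA-PBS animal 3, Tie1 stood at 14.8 CPM and the log2 ratio of Tie1 to Tek at 0.53. In RA-PBS animal 4, the log2 ratio of Angpt1 to the endothelial sum stood at -6.37, in the retina with the lowest endothelial sum of its group (262 CPM) and an astrocyte list at 375 CPM, against 51.4 to 114 in the other 3. Whether these levels had a part in the values was not tested.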

How the results depend on the processing

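Of the 38 settings tried per comparison (the reported fit included), 20 alternatives kept animal 10 and 17 left it out. Members called in O2-PBS against RA-PBS numbered 1 with 12 animals, 0 with library size alone, and 2 with DESeq2, with only the 2 groups compared, and in each of the 17 alternatives without animal 10. In O2-IC100 against O2-PBS they numbered 0 with 12 animals and 1 with DESeq2. Without animal 10 they numbered 3 with edgeR, DESeq2, voom, only the 2 groups compared or animal 1 left out as well, and 1 with the Y-linked covariate. In O2-IC100 against RA-PBS they numbered 0 with 12 animals and 1 (Ptprb) with a crystallin covariate. Without animal 10 they numbered 3 with DESeq2, 2 with edgeR or the Y-linked covariate, 1 with voom or with animal 1 left out too, and 0 with only the 2 groups compared. Over fits leaving out 1 animal, or animal 10 and 1 other, the counts ran from 0 to 2, 0 to 3 and 0 to 3 in that order. Several of these alternatives were chosen after seeing the data, namely the 2-group and voom fits without animal 10 and the fits leaving out animal 10 with each other animal.

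Signs turned mainly for Angpt1 and Tek, whose 12-animal values rest on animal 10. For O2-IC100 against O2-PBS, Angpt1 turned to -0.02 without animals 1 and 10, and without animal 10 to -0.04 (DESeq2), -0.04 (2 groups) and -0.03 (voom), with -0.12 to 1.62 over fits leaving out animals. Tek turned to 0.24 without animals 1 and 10, and without animal 10 to 0.22 (DESeq2), 0.22 (2 groups), 0.25 (voom) and 0.08 (Y-linked covariate), with -0.24 to 0.32 over those fits. For O2-IC100 against RA-PBS, Angpt1 turned to -0.11 with library size alone and with voom and to -0.56 without animals 1 and 10. Without animal 10 it turned to -0.57 (DESeq2), -0.56 (2 groups), -0.54 (voom) and -0.42 (Y-linked covariate), with -0.65 to 1.09 over those fits, and Tek ran from -0.04 to 0.5. The crystallin covariate, highest in animal 10, turned Angpt1 to 0.38, Tek to -0.36 and Ptprb to -0.76 for O2-PBS against RA-PBS, Tek to 0.14 for O2-IC100 against O2-PBS, and Tek to -0.21 and Tie1 to -0.14 for O2-IC100 against RA-PBS. The causes of these turns were not tested. Genes called over the whole table moved as well, in O2-PBS against RA-PBS from 133 to 45 with library size alone, 412 with DESeq2, 867 with 2 groups and 2169 with the crystallin covariate. In O2-IC100 against O2-PBS without animal 10 they numbered 158 with edgeR, 383 with DESeq2, 789 with 2 groups and 46 with the Y-linked covariate, and in O2-IC100 against RA-PBS 261, 567, 18 and 436. Of the 35 pathway genes, the Y-linked covariate called 9, 1 and 3 in the 3 comparisons. No paired analysis was possible because no 2 groups share animal numbers.

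Over the endothelial sum, the list's median in place of its sum moved O2-PBS against RA-PBS to -1.86 for Angpt1 and O2-IC100 against RA-PBS, with all animals, to 0.24 for Angpt2, -0.4 for Tek, -0.27 for Tie1 and -1.72 for Ptprb, with Angpt1 at -0.15. The signs of Tek, Tie1 and Angpt1 turned. Angpt1 rests on 25.7 to 60.1 counts per retina outside animal 10, and O2-IC100 without animal 10 on 3 retinas.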
